A study of Mus musculus with 40 samples.

Results

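Of the 75060 regions covered by the enhancer reporter screen, 11990 (16.0%) held fragments from YFP-Negative gates and none from a Low, Medium or High gate. Regions were made by merging all fragments of the 40 lists that overlapped by 1 bp or more, and the members were selected on the measured gate of their fragments, so their absence from the positive gates is a description and carries no test. Among the members, 10999 consisted of 1 fragment and 991 held 2 or more different fragments, which is 3.35% of the 29596 regions with that many. The screen carried Tn5-cut open-chromatin fragments in front of a minimal HSP68 promoter and Venus-YFP in HM-1 cells, a mouse ES cell line of strain 129/ola whose non-functional Hprt locus was repaired by the integration of the reporter. All groups shared this line, the reporter cassette and HAT selection. Cells were differentiated in serum and sorted as ES cells, as hemangioblast (HB, FLK1+), as hemogenic endothelium before (HE1, KIT+ TIE2+ CD41-) and after (HE2, KIT+ TIE2+ CD41+) CD41 appears, and as hematopoietic progenitors (HP, KIT+ TIE2- CD41+). Each of the 5 stages was then split into Negative, Low, Medium and High YFP in each of 2 replicates, which gives 10 Negative and 30 positive libraries from 10 sorts. The Negative gate was set on a line with the minimal promoter and no fragment. No expression values were used here, so the stage markers were not checked.

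An enhancer is a stretch of DNA that raises transcription from a promoter when the transcription factors it binds are present, and during blood formation different enhancers act at successive stages. In a reporter screen of this kind the fragments are read from the genomic DNA of the cells in each gate. A list thus says which fragments were recovered from a range of brightness, and it gives no brightness value for a single cell. A fragment may hold the whole of an open-chromatin element or a part of it.

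The 10 members with the most different fragments came from 1 library each. In 9 of the 10 all fragments shared 1 end, and in each the ends that varied lay at a short tandem repeat. The reference sequence at the varying end is shown for the first 5 of them so that the steps between their ends can be read against this repeat. Each line gives the nearest gene, the position of the 150 bases shown in GRCm38 (mm10), plus strand, from the RefSeq C57BL/6J reference, with capitals over the stretch in which the ends of the fragments lay.
Rfxap, chr3:54809530-54809679: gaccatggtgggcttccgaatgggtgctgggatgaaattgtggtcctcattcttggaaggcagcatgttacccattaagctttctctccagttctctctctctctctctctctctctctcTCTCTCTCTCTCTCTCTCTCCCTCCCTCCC
Abcc10, chr17:46330054-46330203: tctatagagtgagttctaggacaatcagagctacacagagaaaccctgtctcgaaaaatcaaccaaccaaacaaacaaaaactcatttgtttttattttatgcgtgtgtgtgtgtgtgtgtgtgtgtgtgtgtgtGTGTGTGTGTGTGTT
4930520P13Rik, chr13:70368801-70368950: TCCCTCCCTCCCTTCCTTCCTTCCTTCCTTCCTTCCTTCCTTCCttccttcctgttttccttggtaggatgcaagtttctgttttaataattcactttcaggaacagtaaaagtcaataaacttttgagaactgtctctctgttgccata
Sgsm1, chr5:113284361-113284510: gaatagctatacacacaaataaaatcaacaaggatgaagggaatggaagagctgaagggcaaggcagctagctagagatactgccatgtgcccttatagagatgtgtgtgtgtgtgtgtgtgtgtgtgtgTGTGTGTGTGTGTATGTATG
Ttc25, chr11:100541739-100541888: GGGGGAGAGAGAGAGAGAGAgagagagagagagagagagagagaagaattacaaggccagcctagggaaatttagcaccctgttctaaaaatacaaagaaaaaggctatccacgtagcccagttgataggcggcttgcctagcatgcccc
Near Rfxap, a subunit of the factor that activates MHC class II genes, 14 fragments started at 1 base and ended at 14 different positions over 30 bp, in a TC repeat. Of the 13 steps between neighbouring ends, 9 were of 2 bp. Near Sgsm1, a modulator of small G protein signalling, all 10 steps between the 11 ends were of 2 bp, in a TG repeat. In the member nearest 4930520P13Rik, 9 of 10 steps between the 11 starts were of 4 bp, in a repeat of the unit CCTT. Near Abcc10, an ABC transporter, 7 of 11 steps were of 1 bp and 4 of 2 bp, and near Ttc25, a gene of motile cilia, 4 of 9 steps were of 1 bp and 4 of 2 bp.

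**Figure D1:**
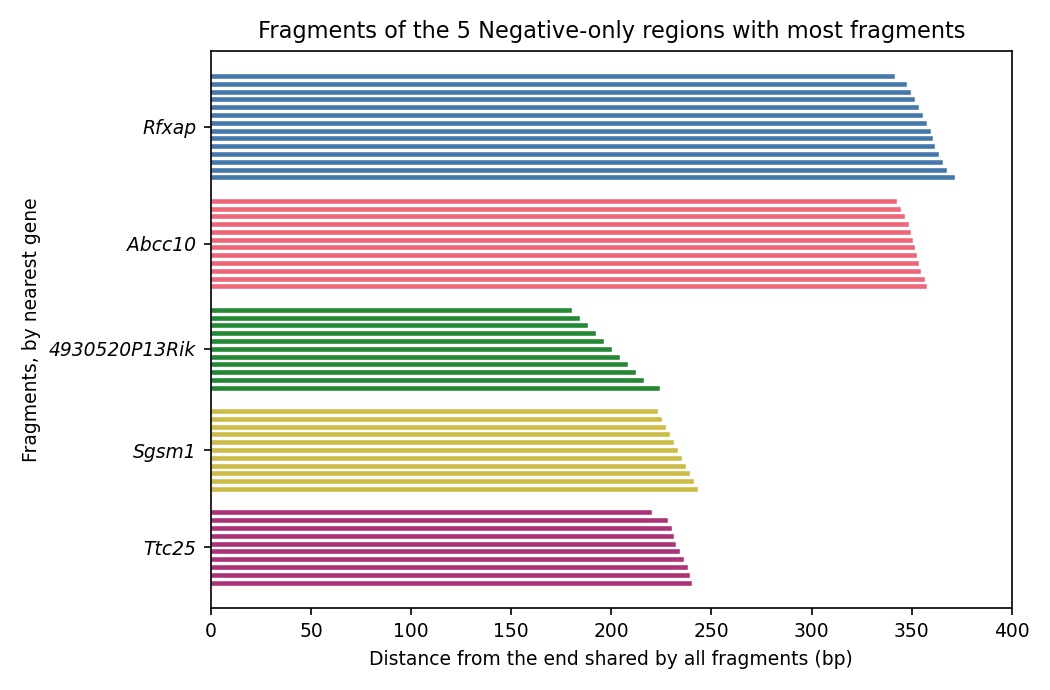
Fragments of the 5 Negative-only regions with most different fragments, each drawn as a line from the end that all fragments of the region share (x axis, bp). The fragments of a region differ at the other end alone, by 15 bp (Abcc10) to 44 bp (4930520P13Rik).

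A further 3 members are shown because their fragments came from Negative libraries of both replicates. Capitals mark matches, on either strand, to the letters searched: TGTGGTC or TGTGGTT (RUNX), TGGGAA (RBPJ), CAGCTG (EBOX), CAGGTG (ZEB), GGAATGC or GGAATGT (TEAD) and AATCAC (GFI1). The first lines are whole regions and the last is the central 300 bases of a region of 454 bp.
Ralgds, chr2:28540001-28540285: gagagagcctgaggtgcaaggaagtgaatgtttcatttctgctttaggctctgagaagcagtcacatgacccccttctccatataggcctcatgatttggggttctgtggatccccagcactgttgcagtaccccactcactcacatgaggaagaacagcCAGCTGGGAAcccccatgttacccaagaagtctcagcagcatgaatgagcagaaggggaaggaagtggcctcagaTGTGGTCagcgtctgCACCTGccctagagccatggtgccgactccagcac
Crb2, chr2:37816600-37816889: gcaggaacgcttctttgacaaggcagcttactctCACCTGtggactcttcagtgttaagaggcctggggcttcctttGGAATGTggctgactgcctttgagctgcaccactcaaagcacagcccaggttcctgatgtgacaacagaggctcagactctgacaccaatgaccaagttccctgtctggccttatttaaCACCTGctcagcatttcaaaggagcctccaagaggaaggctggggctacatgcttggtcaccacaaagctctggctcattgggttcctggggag
Med13l, chr5:118556066-118556365: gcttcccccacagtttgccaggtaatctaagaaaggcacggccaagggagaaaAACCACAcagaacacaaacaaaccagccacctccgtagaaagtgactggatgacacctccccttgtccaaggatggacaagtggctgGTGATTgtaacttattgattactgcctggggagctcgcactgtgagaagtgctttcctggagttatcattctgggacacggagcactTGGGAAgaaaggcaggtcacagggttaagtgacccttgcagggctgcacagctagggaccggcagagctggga
The region near Ralgds, an exchange factor for Ral, held 1 match each to EBOX, RBPJ, RUNX and ZEB, with the EBOX and RBPJ letters overlapping. The region near Crb2, a Crumbs polarity protein, held TEAD and ZEB matches, and that near Med13l, a Mediator subunit, held RUNX, GFI1 and RBPJ matches. Over all 7454 different fragments of 285 to 300 bp, 10.9% held the RUNX letters, 27.1% those of RBPJ, 21.7% those of EBOX, 21.4% those of ZEB, 8.73% those of TEAD and 8.49% those of GFI1. A match describes the letters in the window and is not a measured binding site.

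The 10 Negative libraries held 2727 to 41374 fragments, and the number of fragments limits what each can show. A list holds each fragment once, without reads or molecular identifiers, so the binomial intervals given cover counting error only. The HP Negative library of replicate 2 stood apart. It held 8446 members (70.4% of all), and 8357 members were in it alone, and the main results below are given without it as well. Without that library the rule found 3633 members in 66703 regions (5.45%), 316 of them with 2 or more different fragments.

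In replicate 1 the share of fragments lying in members was 6.40% of the ES Negative library, 3.85% of HB, 0.457% of HE1, 2.41% of HE2 and 3.30% of HP. In replicate 2 it was 32.2% of ES, 30.3% of HB, 12.1% of HE1, 13.7% of HE2 and 63.3% of HP (95% Wilson interval, 62.5 to 64.0%). The replicates did not overlap, and at every stage the share was higher in replicate 2, whose Negative libraries held 26321 fragments in all against 77040 in replicate 1. Within replicate 2 the HP library, with the highest share, was also the deepest (14951 fragments), and ES, HB, HE1 and HE2 held 2727 to 3056. In replicate 1 the deepest, HE1 with 41374, had the lowest share. The part of depth and of the composition of the other libraries in this share was not tested. In regions, ES, HB, HE1, HE2 and HP contributed 619, 296, 175, 195 and 268 members in replicate 1. The same stages contributed 791, 846, 300, 345 and 8446 in replicate 2.

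**Figure D2:**
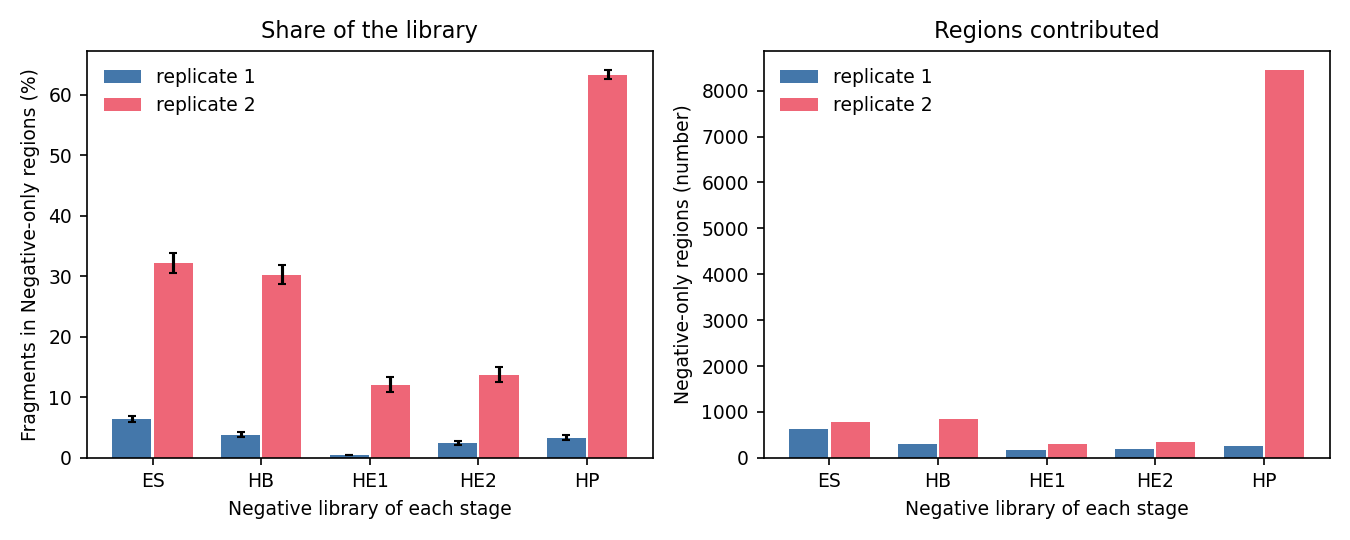
Share of each Negative library's fragments that lay in Negative-only regions (left, %, bars with 95% Wilson intervals) and number of such regions (right), by stage and replicate. The HP library of replicate 2 held 63.3% and 8446 regions, and the other 9 held at most 32.2% and 846.

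The rule was set beside the same measure in the positive gates. The share of a library's fragments lying in regions that no other library held was 3.06% ± 2.08 (SD, n = 5) for Negative and 3.44% ± 2.10 (SD, n = 15) for positive libraries of replicate 1. In replicate 2 it was 27.4% ± 21.8 (SD, n = 5) for Negative and 35.2% ± 16.2 (SD, n = 15) for positive libraries. The HP library carried much of the replicate 2 Negative mean and spread: the other 4 Negative libraries had 18.7% ± 11.0 (SD, n = 4). No test was made of this share. The same merge gave 18641 regions seen only in Low gates, 5891 only in Medium and 9684 only in High. As for the members, 1 library led the Low-only regions: the HE1 Low library of replicate 2 held 76.3% of them.

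Members were seldom shared. There were 11750 in 1 library, 193 in 2, 43 in 3 and 4 in more. By stage, 11759 were seen at 1 stage, 186 at 2, 41 at 3 and 4 at 4. Replicate 1 alone held 1487, replicate 2 alone 10476, and 27 were in both. The pair of libraries that shared the most members was HE1 and HE2 of replicate 2, with 42, which is 14% of the members of that HE1 library. The ES Negative libraries of the 2 replicates shared 2 members, and the HP ones shared 7.

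The share of regions that were members fell with the number of different fragments in the region, which the rule in part fixes, since each further fragment must also be Negative. It was 24.2% of 45464 regions with 1 fragment (95% Wilson interval, 23.8 to 24.6%), 10.7% at 2 fragments, 3.47% at 3 and 1.15% at 4 to 5. It was 0.590% at 6 to 9 fragments and 0.125% at 10 to 19. Without the HP Negative library of replicate 2 it was 8.70% at 1 fragment, 4.00% at 2, 0.971% at 3 and 0.329% at 4 to 5. Of the 3934 regions with 20 or more fragments none was a member, which allows a share of up to 0.0763% (3 counts of the total; the upper end of the 95% Wilson interval is 0.0976%). Regions with 1 fragment were seen only in Low in 36.5%, only in Medium in 11.8% and only in High in 19.5%. No usable upper limit on the positive share of a region follows from 1 fragment. For the Rfxap region, where 0 of 14 fragments were positive, the exact 95% interval reached 23.2%. This is before the shared end of those fragments and their selection by the rule are considered.

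**Figure D3:**
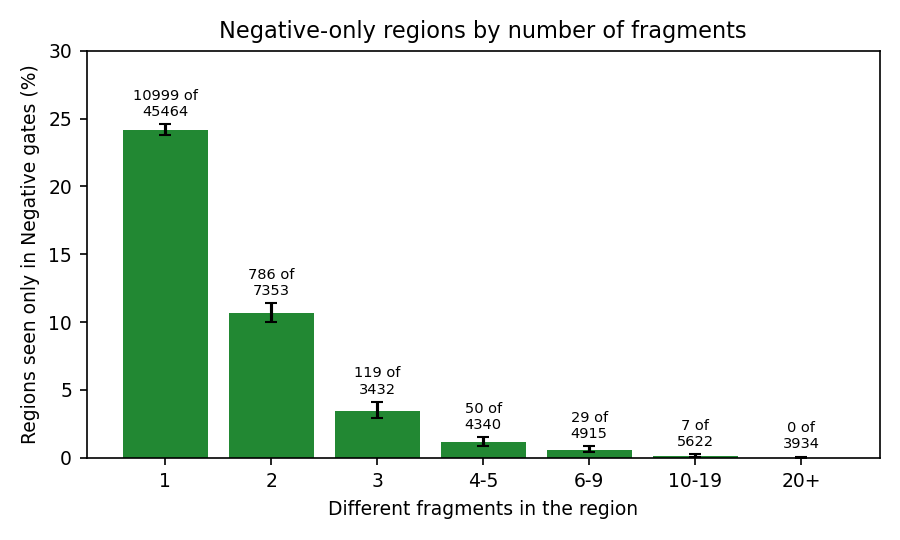
Percent of regions seen only in Negative gates (y axis, bars with 95% Wilson intervals) by number of different fragments in the region (x axis), with members and regions above each bar. The share falls from 24.2% at 1 fragment to 0 of 3934 at 20 or more.

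The 991 members with 2 or more different fragments were examined apart. In 791 of them (79.8%) all fragments shared 1 end, and in 774 the fragments formed 1 chain in which neighbours differed by at most 5 bp at each end. Counting such a chain as 1 fragment left 217 members with 2 or more, which is 0.875% of the 24791 regions that hold 2 or more by this count. A shared end was found in 75.2% of the 2056 Low-only regions with 2 or more fragments, in 49.8% of 542 Medium-only and in 50.3% of 797 High-only regions. Among regions of exactly 2 fragments it was found in 83.7% of 786 members, 84.5% of Low-only, 51.7% of Medium-only, 51.6% of High-only and 28.4% of 4074 mixed regions. The varying end lay at a tandem repeat of 1 to 4 bases in 14.6% of the 991 members. It did so in 15.3% of Low-only, 9.78% of Medium-only and 11.2% of High-only regions. At exactly 2 fragments it did so in 6.49% of members, 10.2% of Low-only, 4.27% of Medium-only, 3.42% of High-only and 0.835% of mixed regions. Outside the HP Negative library of replicate 2, 205 of 303 members (67.7%) shared 1 end, and 38 (12.5%) lay at a repeat. No test was made between these kinds of region, which share libraries and depth.

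The 10 members with the most different fragments held 8 to 14 of them, and counting chains within 5 bp as 1 fragment left 1 or 2 in each. The HP Negative library of replicate 2 gave 9 of the 10 and ES Negative of replicate 2 gave the other, nearest 4930520P13Rik. Beside those printed, the member nearest Fstl1, a secreted glycoprotein, held 10 fragments whose 9 steps were all of 2 bp, and that nearest Gm41177, where 8 of 9 fragments shared a start, had 7 steps, all of 2 bp. The members nearest Tmem45a2, Hmx3 (a homeobox gene of the inner ear) and Ncoa2 (a nuclear receptor coactivator) held 10, 9 and 8 fragments. Distances to the nearest transcription start ran from 1704 bp at Rfxap to 136090 bp at 4930520P13Rik.

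Of the 217 members with 2 or more fragments by this count, 119 had a fragment in the HP Negative library of replicate 2, 67 were in 2 or more libraries, 58 were seen at 2 or more stages and 26 were in both replicates. They held at most 6, and 18 held 3 or more. Ralgds, in an intron at chr2:28540001-28540285, had 1 fragment each in HE2 and HP of replicate 1 and in HP of replicate 2. Its 3 fragments shared 78 bp. Crb2, in an intron at chr2:37816600-37816889, had 1 each in HB of both replicates and in HP of replicate 2, with 2 different fragments among the 3 records. Med13l had 1 fragment in HP of replicate 1 and 3 in HP of replicate 2, and Gm51860 had 1 in HE1 of replicate 1 and 2 in HP of replicate 2. Spata24 had 1 each in ES of replicate 1 and in HB and HE1 of replicate 2. At 3 or 4 records a region, the exact 95% interval of the positive share reached 70.8% or 60.2%. These intervals treat records as independent. They also ignore that the rule chose the regions for having no positive record. Crb2 lay 491 bp from the nearest region with a positive fragment, and the other members of this set lay 3366 to 17481 bp from one.

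Just outside the rule were 2449 regions with Negative fragments and exactly 1 positive record. Among those with most Negative fragments, the region nearest Pex11g, a peroxisomal protein, had 9 Negative records and 1 positive. Sh3pxd2b, Arsj and Poll, the last encoding DNA polymerase lambda, had 5 Negative and 1 positive each. The 10, 6, 6 and 6 different fragments of these regions came to 3, 4, 4 and 2 when chains within 5 bp were counted as 1. Just inside were the members nearest Gm41177 and Hmx3, with 9 Negative fragments each and no positive one.

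Whether a region seen only in Negative gates would be so again was asked by applying the rule in 1 replicate and looking in the other, which the rule had not used. For each sort of the held-out replicate, the share of Negative fragments and of positive fragments lying in Negative-only regions of the other replicate was taken over the fragments in regions that the other replicate held at all. With 12193 Negative-only regions from replicate 2, the Negative fragments of replicate 1 lay in them in 17.4% (ES), 19.3% (HB), 20.1% (HE1), 21.8% (HE2) and 20.4% (HP) of cases. The positive fragments did so in 17.2%, 18.6%, 22.1%, 22.5% and 20.9%. With 1630 Negative-only regions from replicate 1, the Negative fragments of replicate 2 lay in them in 1.45%, 1.77%, 0.868%, 0.542% and 0.947% of cases and the positive ones in 1.64%, 1.77%, 2.32%, 0.424% and 1.50%. The Negative share was above the positive one in 4 of 10 sorts. The mean difference, Negative minus positive, was -0.435 percentage points ± 0.803 (SD over 10 sorts), within -1.97 to 0.695 (two-sided exact permutation test exchanging labels between the sorts of a stage, p = 0.816, 7776 arrangements). That test also exchanged values between replicates whose shares lay far apart (17.2 to 22.5% and 0.424 to 2.32%). It could therefore show only a large difference. With labels exchanged within each sort, which keeps the replicates apart, p was 0.129 (exact permutation test, 1024 arrangements). Without the HP Negative library of replicate 2 in either role, replicate 2 gave 2475 Negative-only regions in place of 12193. The Negative shares of replicate 1 were then 4.62%, 5.58%, 4.79%, 5.14% and 4.36% and the positive ones 4.55%, 5.19%, 5.25%, 5.42% and 5.29%, so the level of the shares above rests on that library. The difference, as a mean over the 5 stages from 9 sorts, was -0.366 percentage points (exact permutation between the sorts of a stage, p = 0.680). A p of this size does not show that the shares were equal. By replicate, the Negative share was 19.8% ± 1.61 and the positive 20.3% ± 2.30 in replicate 1, and 1.12% ± 0.491 and 1.53% ± 0.693 in replicate 2 (SD, n = 5 each).

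Region by region, 143 of the 1630 Negative-only regions of replicate 1 were seen in replicate 2, and 116 of these (81.1%) had a positive fragment there. Of the positive-only regions of replicate 1, 1162 were seen in replicate 2 and 865 (74.4%) had a positive fragment. In the other direction 1717 Negative-only regions of replicate 2 were seen in replicate 1 and 1690 (98.4%) had a positive fragment, against 97.3% of 3732 positive-only regions. The 27 regions that were Negative-only in both replicates were thus 18.9% of the first set and 1.57% of the other. Without the HP Negative library of replicate 2, a positive fragment was found for 92.1% of 126 Negative-only and 92.4% of 936 positive-only regions of replicate 1, and for 97.2% of 356 and 97.6% of 4368 regions of replicate 2.

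The same was done by stage, with the rule applied in the other 4 stages of both replicates and identical fragments left out. In replicate 1 the Negative shares were 0.602% (ES), 0.797% (HB), 0.861% (HE1), 0.495% (HE2) and 0.386% (HP), and the positive shares were 0.538%, 0.842%, 0.869%, 0.683% and 0.410%. In replicate 2 the Negative shares were 7.34%, 4.56%, 6.17%, 3.18% and 1.18%, and the positive shares 5.64%, 6.62%, 2.92%, 3.82% and 1.97%. The Negative share was higher in 3 of 10 sorts, and the mean difference was 0.127 percentage points ± 1.44 (SD over 10 sorts; two-sided exact permutation test, p = 0.912). This test again exchanged values between replicates with unlike shares. With labels exchanged within each sort, p was 0.801 (exact permutation test, 1024 arrangements). The Negative sets of replicate 2 outside HP held 220 to 395 fragments each, which limits what could be seen. Without the HP Negative library of replicate 2, the Negative shares of ES, HB, HE1 and HE2 in replicate 2 were 5.29%, 3.17%, 4.80% and 2.05% and the positive ones 2.43%, 2.92%, 1.26% and 2.24%. The difference, as a mean over the 5 stages from 9 sorts, was then 0.632 percentage points (exact permutation p = 0.405). With identical fragments kept it was 0.925, with the Negative share higher in 8 of 10 sorts (exact permutation p = 0.459).

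**Figure D4:**
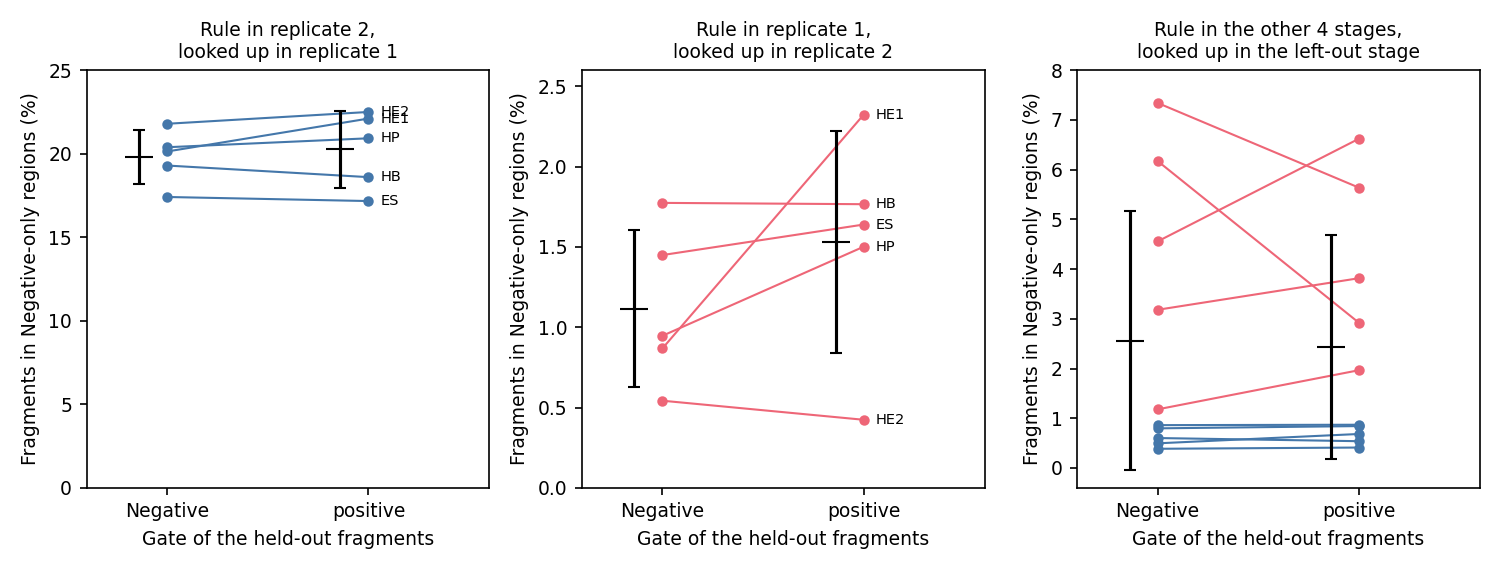
Percent of held-out Negative and positive fragments lying in regions that the rule called Negative-only in the data it used (y axis, linear with a different range in each panel), with lines joining the values of 1 sort and black marks for mean ± SD. The lines run both up and down in each panel. Blue is replicate 1 and red replicate 2.

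Sequence and position were not used by the rule. Single-fragment members were compared with single-fragment regions of the positive gates of the same sort over 22 features. GC content was 49.4% ± 1.42 in members and 49.3% ± 1.63 in the positive regions (SD over 10 sorts). The RUNX letters were in 8.84% ± 2.66 of member fragments and 8.84% ± 2.30 of the positive ones, the GATA letters in 3.65% ± 1.03 and 3.55% ± 1.14, and those of AP-1 in 5.60% ± 2.57 and 5.72% ± 1.72. The TEAD letters were in 6.10% ± 2.01 and 6.26% ± 1.30, and those of SOX in 8.93% ± 3.77 and 8.16% ± 2.19. By replicate, the RUNX difference was 1.16 percentage points in replicate 1 and -1.16 in replicate 2. The TEAD difference was 1.16 and -1.47. SOX letters were more frequent in members in 5 of 10 sorts and less frequent in 5. In replicate 2 the SOX shares were 17.0% and 7.62% in ES, and 5.34% and 11.6% in HE1. None of the 22 features passed the threshold (0.00%; two-sided exact permutation test within stage, Benjamini-Hochberg, adjusted p from 0.958 to 0.998), and none had an unadjusted p under 0.05. That test also exchanged values between replicates of unlike level (GC content of members 50.0% and 48.7%). It could therefore show only a large difference, and p-values of this size do not show that the sets were alike. With labels exchanged within each sort, 0 of 22 passed and none had an unadjusted p under 0.05 (exact permutation test, 1024 arrangements). Leaving out the HP sort of replicate 2 also gave 0 of 22. The smallest unadjusted exact p of the test within stage (0.0787) was that of the share between genes. It was 46.0% ± 3.24 in members and 48.3% ± 1.92 in positive regions, a difference of -2.32 percentage points ± 4.04. The difference in GC content was 0.0999 percentage points ± 0.753 (SD over 10 sorts), and lengths differed by 11 bp in replicate 1 and -28.2 bp in replicate 2. Median length was greater in members in 7 of 10 sorts and smaller in 3. In HE1 of replicate 2 it was 192 bp against 347 bp. The RBPJ letters there were in 17.6% of member fragments and 28.1% of positive ones. Sets were not matched for length. With the central 60 bp alone, 0 of 22 features passed.

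Against other fragments of their own Negative library, which lie in regions that also held positive fragments, member fragments differed in 8 of 22 features (36.4%; two-sided exact permutation test swapping sets within a library, 1024 arrangements, Benjamini-Hochberg). GC content was lower in members in 10 of 10 libraries, at 49.5% ± 1.47 against 53.9% ± 2.49 (adjusted p = 0.00859, exact). The letters of the GC box, CCGCCC, were in 5.38% ± 2.66 of member fragments against 14.4% ± 4.91, lower in 10 of 10 libraries (adjusted p = 0.00859, exact). CTCF matches, to the factor that organises chromatin loops, were in 1.02% ± 0.681 against 3.49% ± 1.97 (adjusted p = 0.0143, exact, lower in 9 of 10). The letters of AP-1, a factor of signalling response, were in 5.73% ± 2.55 against 7.68% ± 1.49 (adjusted p = 0.0269, exact, lower in 9 of 10). The CpG ratio and the exon share were also lower, and repeat-masked bases (17.4% ± 5.84 against 11.7% ± 4.13) and the log10 distance to a start site (4.41 ± 0.08 against 4.25 ± 0.09) were higher. The value 0.00195 is the smallest unadjusted p these arrangements can give, and 5 of the features reached it. RUNX letters were in 8.41% ± 2.59 and 8.60% ± 0.984 (adjusted p = 0.876, exact). Without the HP library of replicate 2, 7 features passed, all but that of AP-1 (adjusted p = 0.0537, exact).

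The comparison above sets sparse regions against denser ones. When only regions with exactly 2 different fragments were compared, 0 of 22 features passed the same test (2 had an unadjusted exact p under 0.05), with GC content at 50.2% ± 2.07 in members and 50.7% ± 1.49 in others. The difference in GC content was -0.483 percentage points there and -4.38 over all fragments, and the sets held 23 to 1032 member fragments a library. GC box letters were then in 7.40% ± 3.82 and 6.46% ± 3.12. The SOX letters were in 14.2% ± 7.40 of member fragments and 8.20% ± 2.23 of others in these regions (higher in 9 of 10 libraries, adjusted p = 0.0645, exact). Repeat-masked bases were 17.1% ± 4.24 and 13.8% ± 3.12 (higher in 9 of 10, adjusted p = 0.0645, exact). In 79.1% of the 786 members of exactly 2 fragments these lay within 5 bp of each other, against 24.0% of mixed regions. Many member fragments here were thus near-copies of 1 sequence. In regions with exactly 3 different fragments, where 7 libraries held enough fragments, 0 of 22 features passed and 7 had an unadjusted exact p under 0.05, with 0.0156 the smallest p that 7 libraries allow. The difference there was -7.41 percentage points for the GC box (-9.04 over all fragments), -5.29 for AP-1 (-1.95), -7.79 for the exon share (-2.21) and 16.9 for repeat-masked bases (5.62), with an adjusted exact p of 0.147 each. The difference in GC content was -1.20 and that in SOX letters -6.78. Only 119 members had 3 fragments, and 32 did without the HP Negative library of replicate 2. A set needed 5 fragments and each library counted equally, so these differences rest on few regions. Within either replicate alone, 5 libraries allow no p under 0.0625.

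**Figure D5:**
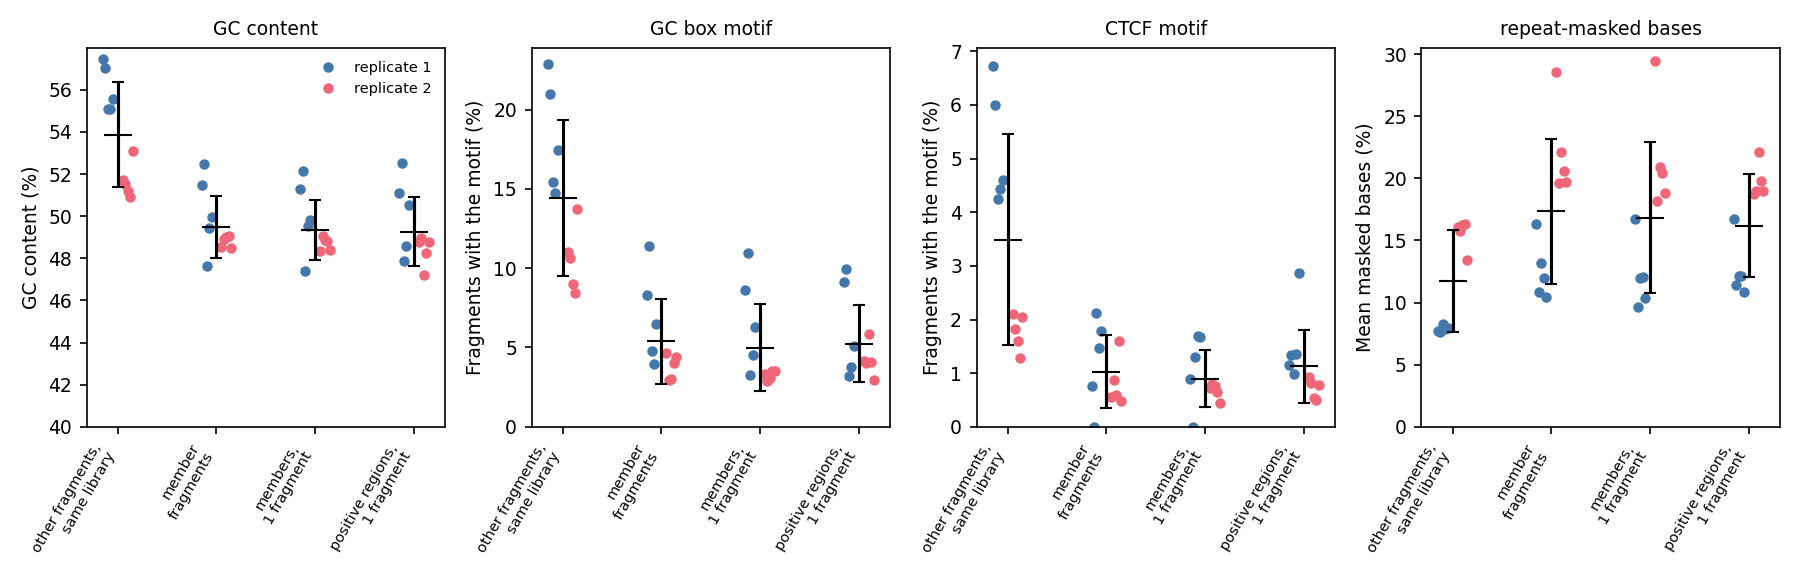
GC content, share of fragments with the GC box and CTCF letters and repeat-masked bases (y axes, % with GC content starting at 40%) per library or sort, with black marks for mean ± SD over 10. Member fragments lie below other fragments of their library in 10 of 10 libraries for GC content (49.5% against 53.9%) and the GC box letters and in 9 of 10 for CTCF, while single-fragment members and single-fragment positive regions overlap (49.4% and 49.3%).

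By position, 47.8% of members had their centre in an intron, 5.26% in an exon and 47.0% between genes, against 46.0%, 5.14% and 48.8% of other regions. The median distance to a start site was 27931.5 bp in members, 24309 bp in other regions and 27632.5 bp in single-fragment positive regions. Of the members, 19.8% lay over 100000 bp from a start, against 16.2% of other regions and 19.7% of single-fragment positive regions. Outside the HP Negative library of replicate 2, 47.2% of members were intronic and the median distance was 26618 bp. Members were 189 bp wide in the median and other regions 309 bp. By chromosome the share of members ran from 15.0% to 17.4%.

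Near the genes of the blood transcription factor list, 38 of 246 regions (15.4%) were members, and 11 of 25 genes with a region had one. Runx1, the master factor of the endothelial-to-hematopoietic transition, was nearest to 9 members among 40 regions, 2 of them outside the HP Negative library of replicate 2. Mecom, a stem cell factor, had 6 of 23 (3 outside that library), Etv6 4 of 16 (1 outside) and Meis1 4 of 25 (0 outside). Genes were named for holding the most members, and others of the list had none, such as Runx2 with 0 of 17 regions. Near endothelial genes 12.4% of 209 regions were members. Of the 28 genes with a region 15 had one, and others had none, such as Egfl7 with 0 of 13 regions. Cdh5 (VE-cadherin) had 4 of 20 (0 outside that library) and Kdr (the VEGF receptor FLK1) 3 of 28 (3 outside). Near signalling-responsive factors the share was 17.1% of 252, and 17 of 31 genes with a region had a member. Smad1 had 7 of 18 (3 outside) and Smad6 7 of 31 (4 outside), both in BMP signalling, and Tead1 5 of 24 (1 outside). Near pluripotency genes the share was 14% of 114, and 9 of 20 genes with a region had a member. Esrrb had 2 of 17 (1 outside) and Klf4 2 of 15 (0 outside). Other genes of this list were tied with them, such as Sox2 with 2 of 5, and Nanog had 0 of 4. Near mesoderm and cardiac genes the share was 13.8% of 123, with 4 of 13 at Isl1 (2 outside), and 11 of 18 genes with a region had a member. The share over all regions was 16.0%.

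Near neuronal synapse genes 60 of 281 regions (21.4%, 95% Wilson interval 17.0 to 26.5%) were members. Opcml had 8 of 24 and Lsamp 7 of 22, both neuronal cell adhesion genes. Of these members, 4 at Opcml and 1 at Lsamp were outside the HP Negative library of replicate 2. Near olfactory and vomeronasal receptors, which are expressed in sensory neurons, 96 of 365 regions (26.3%, 22.0 to 31.0%) were members, spread over 84 genes. Within 100000 bp of a start the synapse share was 18.8% (12.9 to 26.4%) and the receptor share 25.8%. Members outside the HP Negative library of replicate 2 were 4.72% of all regions. They made up 2.63% of regions near pluripotency genes, 5.28% near blood factors, 3.83% near endothelial genes, 7.54% near signalling factors, 4.07% near mesoderm genes, 5.69% near synapse genes and 7.95% near sensory receptors. Nearest gene is a matter of distance alone, neighbouring regions share a gene, and no test was made of these lists. Lists were not matched for the number of fragments per region, and 24.2% of all regions with 1 fragment were members.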

How the data were processed

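The 40 lists of mouse HM-1 reporter fragments hold coordinates that the authors deposited as start and end per fragment, with no count or score. Per the methods, the authors trimmed reads (Trim Galore), aligned them to mm10 (Bowtie2, inserts up to 600 bp), kept proper pairs with mapping quality over 40 (SAMtools), reduced repeats to 1 and used bedtools and HOMER for filters. Which filters the lists had passed, and tool versions, are not given in the sources used here. Lists held 654 to 51146 fragments. Libraries were grouped by titles. Nothing shows that the replicates are separate transfections, so p-values measure the spread between these samples.

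Here fragments were merged at 1 bp, placed on GRCm38 with curated RefSeq transcripts, and searched for 14 motifs (Python 3.11.15, pandas 2.3.3, numpy 2.4.6). A sort is 1 stage of 1 replicate. Sets needed 5 fragments. Shares were compared by exact permutation over sorts with Benjamini-Hochberg adjustment at 0.05, and the procedures were tested on simulated data. Gates of a sort come from the same sorted cells: single-fragment GC content was 50.0% (Negative) and 50.1% (positive) in replicate 1, and 48.7% and 48.4% in replicate 2. Alternatives were other merges, positive gates, left-out sorts and replicate blocks. Regions named were the 10 members with most different fragments, 5 seen in most Negative libraries in both replicates, 5 just outside (1 is not reported here), and up to 4 genes per list with most members. Members and lists were chosen with earlier results of these data known.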

Additional observations from a re-analysis of the deposited data

Results flagged for a closer look

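The HP Negative library of replicate 2 held 8446 members, and 63.3% of its fragments lay in them. Among the 10 Negative libraries its distance from the next one, divided by the whole range, was 0.919 for the number of members and 0.495 for the share, above the 95% critical value of Dixon's test (0.466). Among the 5 Negative libraries of replicate 2 the number of members, 8446, also passed (0.933 against 0.710), and the share did not (0.608). This library was 72.6% of the fragments of its sort. In replicate 1 the ES Negative library held 619 members, the next 296, and passed by a small margin (0.727 against 0.710). Chance flags about 1 in 20 such groups where values are normal and independent and each group is tested once. The groups and measures here overlap, so that rate does not hold for them together. Members come from the gate rule, so these flags are a description. What sets these libraries apart was not tested.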

How the results depend on the processing

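The number of members was 11990 and stayed within 1.5 times of this under every merge and gate setting tried (11271 to 13146). Leaving out libraries gave 1630 (without replicate 2) to 12380 members, with 3688 without the HP sort of replicate 2 and 3633 without its Negative library alone, an alternative chosen after seeing the data. For members with 2 or more different fragments the range was 126 to 1107 against 991, with 323 and 316 in those settings, and 217 with chains within 5 bp counted as 1. In the replicate block, with labels exchanged within a sort, the held-out replicate difference stayed at -0.435 (p = 0.129, exact) and the held-out stage difference at 0.127, and no feature of single-fragment members passed. The held-out replicate difference was positive, 0.0555, with all fragments as denominator, and -0.517 to -0.352 with sorts left out. The held-out stage difference was -0.0406 within replicate 1, -0.474 with Medium and 0.927 with Low as the positive gate (both chosen after seeing the data), 0.925 with identical fragments kept, and -0.200 to 0.632 with libraries left out. None of these passed the threshold. For features within a library, 8 passed, 7 with no replicate block, 7 to 10 with 1 library left out, and 0 within either replicate (smallest p 0.0625) or in regions of exactly 2 or 3 fragments, though at 3 fragments the GC box (-7.41), AP-1 (-5.29), exon (-7.79) and repeat (16.9) differences kept their sign (adjusted p = 0.147, exact). The differences at 3 fragments rest on few regions, since 119 members had that many. In regions of exactly 2 fragments the differences in log10 distance (-0.0805), AP-1 (1.96) and GC box (0.933 percentage points) turned. The AP-1 difference missed the threshold with the central 60 bp, with no replicate block (adjusted p = 0.0808, exact, as for repeat-masked bases) and without HB or HP of replicate 1 or HE1 or HP of replicate 2 (0.0537 to 0.0859), and the exon share without HE2 of replicate 1 (0.0537). Shares near gene lists within 100000 bp stayed inside their intervals. The number of fragments per region limits each call, since 10999 members rest on 1 fragment.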
